A study of Homo sapiens with 2 samples.

Results

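The 9 genes described here, POU4F1, CCND2, ID1, JUP, RARB, LAT2, OGG1, BAALC and CAV1, are genes that the literature reports as regulated by the RUNX1-RUNX1T1 fusion. The rule that lists them rests on those reports and uses no methylation value, although earlier results of these data were known when they were chosen. They are 9 of the 20163 protein-coding genes of GENCODE release 44 lifted to hg19. The data were 2 MCC-Seq libraries, in which DNA is treated with bisulfite, so that only methylated cytosine is still read as cytosine, and chosen CpG sites are enriched with probes. SKNO-1 is an acute myeloid leukemia (AML) cell line that carries t(8;21) and so expresses RUNX1-RUNX1T1, also called AML1-ETO. SKNO1-siAE is a line made from SKNO-1 by infection with a lentiviral vector, pRRLcPPT.hPGK, that encodes the siAGF1 oligonucleotides against the fusion mRNA. Both were grown in the same medium, and each was measured once, so SKNO1-siAE stands for a single derived line, and the effect of the vector and of passage cannot be told apart from that of the silenced fusion. Whether the fusion transcript was lower in the cells of this library was not analysed here.

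RUNX1-RUNX1T1 keeps the DNA-binding domain of RUNX1 and joins it to a partner that recruits corepressors, histone deacetylases and DNA methyltransferases. It sits at RUNX motifs, where it represses many genes that RUNX1 would activate and raises others. Methylation of CpGs at a gene's start usually goes with a silent gene, whereas methylation within the transcribed body is common in active genes. Of these genes, POU4F1, CCND2, ID1 and JUP have been reported as raised by the fusion and RARB, LAT2 and OGG1 as lowered.

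Each cytosine of a CpG, on its own strand, counted as 1 site, and the methylated share of its reads, from 0 to 1, is called its level. Both libraries had at least 5 reads at 3168726 sites, the shared sites, with a median depth of 16 reads in SKNO-1 and 15 in SKNO1-siAE. The level averaged over them was 0.587 for SKNO-1 and 0.655 for SKNO1-siAE. Differences are SKNO-1 minus SKNO1-siAE throughout. A promoter window ran from 1500 bp upstream to 500 bp downstream of each annotated start, with overlapping windows of a gene joined, and the gene body was the rest of the gene. The share of a gene's promoter CpG cytosines that could be compared ranged from 2.35% in LAT2 to 61.3% in CAV1. All confidence intervals are 95%, cover counting error only and treat each read at each site as independent. The reads carry no molecular identifiers, and 1 read counts at every CpG it spans. Intervals of pooled reads, and limits from 0 methylated reads, are therefore too narrow.

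The promoters of 4 of the 8 genes with at least 10 shared promoter sites were at least 0.2 lower in SKNO-1, and 0 of 8 were at least 0.2 higher. These 4 were BAALC (-0.329), JUP (-0.284), CAV1 (-0.274) and POU4F1 (-0.202), and the median difference of the 8 genes was -0.119. Among all 17879 protein-coding genes with at least 10 shared promoter sites, 13.3% were lower and 2.5% were higher by as much, and the median difference was -0.0126. In gene bodies, 2 of 8 genes were at least 0.2 lower in SKNO-1, OGG1 (-0.250) and CAV1 (-0.309), and 0 were at least 0.2 higher, against 10.2% lower and 2.36% higher of 14409 genes. Over the whole gene span, promoters included, OGG1 was at -0.139 and no longer past 0.2, BAALC was past it at -0.284, and JUP went from 0.122 to -0.00491. With 1 library per cell line no test of a gene's mean was possible, and 1 of the 4 promoters, that of POU4F1, lay next to the limit of 0.2. The count of 4 promoters fell to 2 when only sites with at least 10 reads were used (POU4F1 and JUP) and to 2 when reads were pooled over the window (JUP and CAV1).

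**Figure D1:**
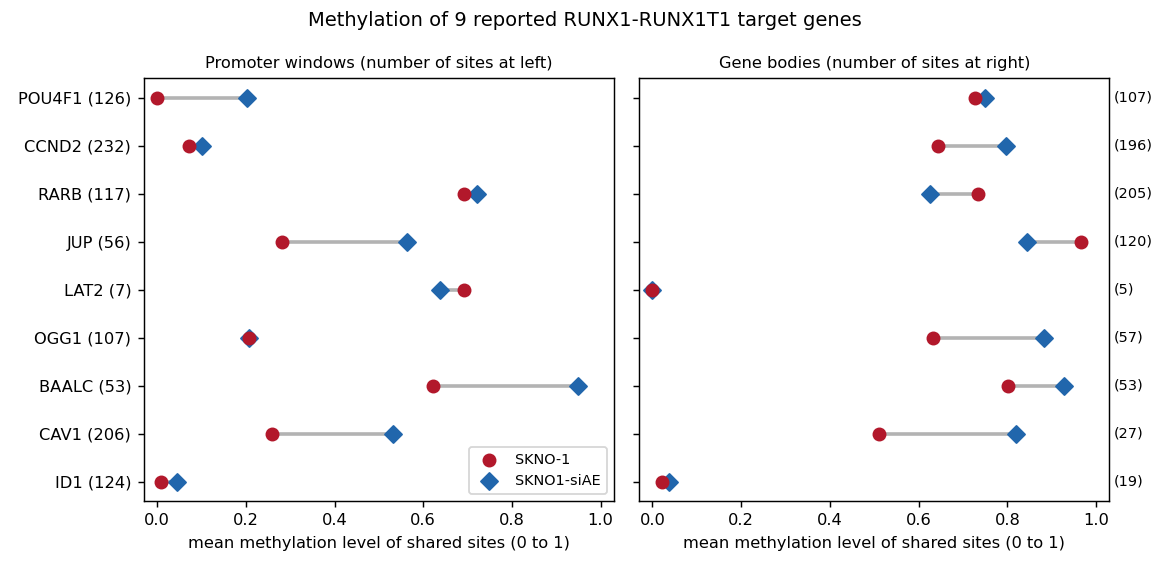
Mean methylation level of the shared sites of each gene in SKNO-1 (circles) and SKNO1-siAE (diamonds), in promoter windows (left) and gene bodies (right), with the number of sites in brackets and 1 library per cell line. The promoters of POU4F1, JUP, BAALC and CAV1 show gaps of at least 0.2 with SKNO-1 on the lower side, while in gene bodies RARB and JUP show SKNO-1 on the higher side.

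The reads of each site were compared between the libraries with a 2-sided Fisher's exact test. A site was called where its difference reached 0.2 and its p, adjusted by Benjamini-Hochberg over every shared site, was under 0.05. Such a test speaks of this pair of libraries only. In the 1028 promoter sites of the 9 genes, 56 (5.45%) were called higher in SKNO-1 and 171 (16.6%) lower, against 4.41% and 11.7% of all shared sites. In their 789 gene-body sites, 63 (7.98%) were called higher and 104 (13.2%) lower. CAV1 held 69 of the 171 promoter sites called lower, and RARB held 40 of the 63 gene-body sites called higher. With Bonferroni adjustment instead, 11 of the 1028 promoter sites were called higher and 15 lower, against 0.669% and 2.28% of all shared sites. The share called lower was then below that of all shared sites. A candidate region was a run of 5 or more sites, with gaps of 300 bp or less, in which the running mean of 5 differences stayed at 0.2 or beyond on one side. The 9 genes held 45 of these, 33 lower and 12 higher in SKNO-1, and of all candidate regions 76.8% were lower. With a 2-sided Mann-Whitney U test between the site levels of the libraries, Bonferroni-adjusted for the number of shared sites, 1 was called higher and 2 lower, against 1.05% and 4.75% of all 50640 candidate regions. The called regions lay at CCND2, POU4F1 and CAV1. Candidate regions that were not called are described below by their values alone, and those named were chosen after these values were seen.

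POU4F1 encodes BRN3A, a POU-domain transcription factor of sensory neurons that is abnormally expressed in AML with t(8;21). The gene lies on the minus strand of chr13:79172497-79177687, with 1 annotated start. In the promoter, 0 of 1132 reads were methylated in SKNO-1. If all were independent, this allows a level of up to 0.00265 (3 reads of the total). They were summed over 126 sites with a median depth of 9, so the true limit is wider. In SKNO1-siAE, 464 of 2371 reads were methylated, a share of 0.196 (Wilson interval 0.180 to 0.212). All 126 sites were under 0.1 in SKNO-1, and 75 of them were in SKNO1-siAE, where 9 were over 0.9. The mean level of SKNO1-siAE was 0.365 over 46 sites in the 250 bp before the start and 0.149 over 35 sites in the 250 bp after it. At the start itself, all 26 shared sites from -77 to 100 bp, which lay on the minus strand, were at 0 in both libraries, with 6 to 9 reads each in SKNO-1 and 11 to 25 in SKNO1-siAE. Farther out, at -1500 to -1251 bp, all 6 sites were at 0 in both libraries.

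The called region of POU4F1 is chr13:79177843-79177984, outside the gene and centred 226 bp before its start, within the antisense gene OBI1-AS1. It is shown because it held most of the sites of this promoter that were called, with its 19 CpGs in capitals on the plus strand of GRCh37.

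POU4F1 upstream region: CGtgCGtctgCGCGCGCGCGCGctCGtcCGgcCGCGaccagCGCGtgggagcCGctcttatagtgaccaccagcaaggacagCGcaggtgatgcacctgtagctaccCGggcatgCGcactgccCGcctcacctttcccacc

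In this region SKNO-1 had 0 of 334 reads methylated (a level of up to 0.00898) and SKNO1-siAE 314 of 916 (interval of the share 0.313 to 0.374). The mean of the 35 site levels was 0 in SKNO-1 against 0.479. With at least 10 reads per site the region was no longer called. The strands were unequal, with a difference of -0.199 over 20 plus-strand sites and -0.852 over 15 minus-strand sites. Of the 2 POU4F1 promoter sites tied at the smallest adjusted p, the one named by position, chr13:79177885 on the minus strand, had 0 of 10 methylated reads in SKNO-1 and 12 of 12 in SKNO1-siAE (adjusted p = 3.12e-05, Fisher's exact test). SKNO-1 had fewer reads here. The log2 ratio of promoter reads was -1.07, and that of all reads in the surrounding 5 Mb, scaled to library totals, was -0.596, whereas for the other 8 genes the latter lay between -0.0853 and 0.0878. The part of this in the difference was not tested. In the gene body SKNO-1 averaged 0.728 and SKNO1-siAE 0.750 over 107 sites, and both libraries were mostly methylated, with 63 and 66 sites over 0.9. The POU4F1 body still held 10 sites called lower and 4 called higher. One of the 2 sites tied at the smallest adjusted p there, chr13:79176841 on the minus strand in the intron, had 0 of 13 methylated reads in SKNO-1 and 13 of 13 in SKNO1-siAE (adjusted p = 4.95e-06, Fisher's exact test).

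CCND2 encodes cyclin D2, which drives entry into the cell cycle with CDK4 and CDK6. It lies on the plus strand of chr12:4378937-4414519 and has 8 transcripts in 3 joined promoter windows. Its promoters were mostly unmethylated, at an average of 0.0724 in SKNO-1 and 0.1004 in SKNO1-siAE over 232 sites, of which 196 and 184 were under 0.1. The mean difference turned to 0.0281 with at least 10 reads per site, and it held differences of both signs. Around the start of the canonical CCND2-201 transcript, the shared sites from -1500 to -1 bp were all at 0 in both libraries. In the 250 bp after it the level was 0 in SKNO-1 and 0.0595 in SKNO1-siAE, over 12 sites. The window of the start farthest upstream had a level of 0.103 in SKNO-1 and 0.411 in SKNO1-siAE over 34 sites. This gap came from the minus strand, with -0.402 over 27 sites, against 0.0597 over 7 plus-strand sites. The median depth of this window was 6 reads in SKNO-1, and pooled over reads the difference was -0.201 (interval -0.257 to -0.139). In the candidate region that held most of it, chr12:4379068-4379424, 14 of the 18 sites formed 1 run of equal read numbers.

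The called region of CCND2, chr12:4384776-4385030, was the only called region at the 9 genes that was higher in SKNO-1. It is centred 1975 bp after the canonical start and 188 bp after the nearest annotated start of CCND2. The region overlaps an exon of the noncoding transcript CCND2-205 and lies within the genes CCND2-AS1, ENSG00000285901 and ENSG00000290063. It is shown for that reason, with its 13 CpGs in capitals on the plus strand of GRCh37.

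CCND2 region: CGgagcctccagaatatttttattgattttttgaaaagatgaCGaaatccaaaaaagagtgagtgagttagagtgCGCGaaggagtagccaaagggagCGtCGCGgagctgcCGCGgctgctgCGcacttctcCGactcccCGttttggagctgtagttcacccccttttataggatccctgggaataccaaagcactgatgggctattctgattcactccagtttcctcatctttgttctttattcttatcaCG

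There, SKNO-1 had 217 of 547 reads methylated (interval of the share 0.357 to 0.438) and SKNO1-siAE 0 of 766 (a level of up to 0.00392). The mean level of the 24 sites was 0.405 against 0. The region was still called with at least 10 reads per site, but not when the smoothed difference had to reach 0.3. The difference was alike on both strands, 0.381 over 12 plus-strand sites and 0.429 over 12 minus-strand sites. At 19 of the 24 sites the level was called higher in SKNO-1. The CCND2 promoter site with the smallest adjusted p, chr12:4384909 on the plus strand, had 26 of 32 methylated reads in SKNO-1 and 0 of 34 in SKNO1-siAE (adjusted p = 4.93e-11, Fisher's exact test).

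The body of CCND2 differed the other way. SKNO-1 averaged 0.643 and SKNO1-siAE 0.797 over 196 sites, with 41 sites called lower and 2 called higher. Over the whole gene span the difference went from -0.154 to -0.0899. A candidate region at chr12:4398403-4398655, in an intron, had 50 of 495 methylated reads in SKNO-1 and 242 of 262 in SKNO1-siAE over 16 sites. It was not called, although the difference of -0.800 was the second largest among the 45 candidate regions. At chr12:4398618 within it, SKNO-1 had 0 of 64 reads methylated and SKNO1-siAE 30 of 30 (adjusted p = 2.05e-22, Fisher's exact test).

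ID1 encodes an inhibitor of basic helix-loop-helix factors that holds back differentiation. It lies on the plus strand of chr20:30193086-30194318, and its 2 starts share a window. The ID1 promoter was unmethylated in both libraries, averaging 0.00834 in SKNO-1 and 0.0446 in SKNO1-siAE over 124 sites, of which 121 and 116 were under 0.1. Of the 8 promoters with at least 10 sites, it was the 1 that was under 0.1 in both libraries. The 6 sites called lower in SKNO-1 included 5 of a candidate region upstream of the start, chr20:30192545-30192668, which is shown as the exception in this promoter with its 5 CpGs in capitals on the plus strand of GRCh37.

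ID1 upstream region: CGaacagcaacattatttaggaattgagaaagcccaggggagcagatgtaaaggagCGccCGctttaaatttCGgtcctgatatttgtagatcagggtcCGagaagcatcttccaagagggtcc

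In these 9 sites, SKNO-1 had 14 of 133 reads methylated (interval of the share 0.0637 to 0.169) and SKNO1-siAE 60 of 95 (interval 0.531 to 0.722). The difference was -0.500 on the plus strand and -0.455 on the minus strand. The region was not called. Of the 2 ID1 promoter sites tied at the smallest adjusted p, the one named by position, chr20:30192601, had 0 of 10 methylated reads in SKNO-1 and 12 of 12 in SKNO1-siAE (adjusted p = 3.12e-05, Fisher's exact test). The body of ID1 was likewise unmethylated, at 0.0215 and 0.0368 over 19 sites.

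JUP encodes plakoglobin, also called gamma-catenin, which links adhesion junctions to the cytoskeleton and can act with TCF factors. It lies on the minus strand of chr17:39910856-39943183. The JUP promoters averaged 0.281 in SKNO-1 and 0.564 in SKNO1-siAE over 56 sites. Pooled over reads, the shares were 0.331 (interval 0.298 to 0.365) and 0.568 (interval 0.540 to 0.595). In SKNO-1, 38 sites were under 0.1, and in SKNO1-siAE only 9 were. The gap lay at the cluster of 9 starts that includes the canonical JUP-203, where the level was 0.144 against 0.559 over 47 sites. In the 250 bp before the canonical start it was 0.0134 against 0.405 over 32 sites, and in the 250 bp after it 0 against 0.947 over 7 sites. From -750 to -501 bp both libraries were methylated, at 0.957 and 0.807 over 2 sites. The 7 sites after the start were on the plus strand within 24 to 60 bp, and each had 7 reads in SKNO-1.

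At the start of another JUP transcript, JUP-204, the libraries stood the other way, with 0.994 in SKNO-1 and 0.590 in SKNO1-siAE over 9 sites. The JUP body was also more methylated in SKNO-1, at 0.966 against 0.843 over 120 sites, with 16 sites called higher and 0 called lower. The promoter site with the smallest adjusted p, chr17:39943145 on the plus strand, had 0 of 29 methylated reads in SKNO-1 and 32 of 36 in SKNO1-siAE (adjusted p = 2.18e-12, Fisher's exact test). In the JUP body, chr17:39913929 in a coding exon had 33 of 35 methylated reads in SKNO-1 and 0 of 35 in SKNO1-siAE (adjusted p = 2.48e-15, Fisher's exact test). JUP promoter reads were fewer in SKNO-1, with a log2 ratio of -0.719, and the part of this in the difference was not tested. No region of JUP was called.

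RARB encodes the retinoic acid receptor beta, a nuclear receptor that is itself induced by retinoic acid. RARB spans chr3:24729378-25639423 on the plus strand, and its 23 transcripts give 9 separate promoter windows, of which 5 held no shared site. Over the other 4 windows SKNO-1 averaged 0.692 and SKNO1-siAE 0.720 (117 sites), a difference of -0.0283, which turned to 0.0372 with at least 10 reads per site. The windows differed in sign, at 0.190 (11 sites), 0.00875 (23 sites), 0.172 (7 sites) and, for that of the canonical RARB-201 start, -0.0896 (76 sites). Pooled over reads, the difference of the canonical window was -0.0301 (Newcombe interval -0.0631 to 0.00288). Within this last window the differences were again of both signs, and 13 sites were called higher and 20 lower. From 500 to 251 bp before the start the level was 0.280 in SKNO-1 and 0.836 in SKNO1-siAE over 26 sites. Each of the 11 minus-strand sites there had only 5 reads in SKNO1-siAE, the difference on the 15 plus-strand sites was -0.234, and pooled over reads it was -0.397 (Newcombe interval -0.456 to -0.334). In the 250 bp before the start the level was 0.409 in SKNO-1 and 0.466 in SKNO1-siAE over 14 sites. The order turned within this stretch, with 4 sites called lower farther out and 5 called higher from -60 bp on. In the 250 bp after the start SKNO-1 was higher, at 0.980 against 0.698 in SKNO1-siAE over 26 sites.

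A candidate region of 25 sites upstream, chr3:25469149-25469471, had 117 of 401 methylated reads in SKNO-1 and 281 of 357 in SKNO1-siAE. The strands were unequal there, at -0.288 on the plus strand and -0.898 on the minus strand, and the region was not called. Downstream, chr3:25469926-25470085 had 134 of 150 methylated reads in SKNO-1 and 52 of 251 in SKNO1-siAE over 8 sites, with differences of 0.573 on the plus strand and 0.750 on the minus strand. The RARB promoter site with the smallest adjusted p lies there, chr3:25469991 on the plus strand. SKNO-1 had 28 of 28 reads methylated there and SKNO1-siAE 0 of 46 (adjusted p = 1.81e-18, Fisher's exact test). The 30 bases around it, chr3:25469979-25470008, are in an untranslated exon and are shown on the plus strand of GRCh37 with CpGs in capitals, the site being the cytosine of the second CpG.

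RARB site: aacccccCGcccCGgctggattggcCGagc

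The body of RARB was more methylated in SKNO-1, at 0.733 against 0.626 over 205 sites, with 40 sites called higher and 10 lower. Over the whole gene span the difference went from 0.108 to 0.0537. Of all 14409 gene bodies, 94.4% had a difference as low as the 0.108 of RARB or lower. In the RARB body, chr3:25583275 on the minus strand had 51 of 72 methylated reads in SKNO-1 and 0 of 39 in SKNO1-siAE (adjusted p = 9.38e-13, Fisher's exact test). These sites are 1.78% of the CpG cytosines of this long gene body, so most of it was not measured in both libraries.

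LAT2 encodes an adaptor protein of myeloid, mast and B cells that is phosphorylated after receptor activation. It lies on the plus strand of chr7:73613982-73644164. Too little of LAT2 was captured to describe it, with 7 shared promoter sites and 5 in the gene body. The promoter sites had levels of 0.692 in SKNO-1 and 0.637 in SKNO1-siAE, and the body sites had 0 of 60 and 0 of 35 methylated reads, which allow levels of up to 0.05 and 0.0857. The only called site of LAT2, chr7:73623680 on the minus strand, had 23 of 25 methylated reads in SKNO-1 and 11 of 36 in SKNO1-siAE (adjusted p = 2.78e-05, Fisher's exact test).

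OGG1 encodes the glycosylase that removes 8-oxoguanine from DNA. OGG1 spans chr3:9791628-9829903 on the plus strand. Its promoters did not differ in the mean, at 0.207 in each library over 107 sites. Pooled over reads the difference was 0.0241 (Newcombe interval -0.00408 to 0.0518). In the 250 bp on either side of the canonical OGG1-205 start, the level was 0.00651 or lower in both libraries (32 and 8 sites), and from -1250 to -1001 bp it was 1.0 in SKNO-1 and 0.990 in SKNO1-siAE over 13 sites. From -750 to -501 bp SKNO-1 was lower, at 0.277 against 0.400 over 12 sites, 3 of them called (pooled difference -0.180, interval -0.260 to -0.0992). Of the OGG1 promoter sites, 2 were called higher and 4 lower, and the one with the smallest adjusted p, chr3:9792155, had 27 of 32 methylated reads in SKNO-1 and 0 of 17 in SKNO1-siAE (adjusted p = 1.58e-07, Fisher's exact test).

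In the OGG1 body the libraries parted, with 0.633 in SKNO-1 and 0.883 in SKNO1-siAE over 57 sites, 17 called lower and 0 called higher. All 5 candidate regions of OGG1 were lower in SKNO-1 and lay in introns 12300 to 21582 bp from the nearest OGG1 start. The one nearest to it, chr3:9811258-9811407, also overlaps the gene CAMK1. Distances to the starts of other genes were not taken, so these regions may lie near one. At chr3:9811919, SKNO-1 had 11 of 39 reads methylated and SKNO1-siAE 56 of 58 (adjusted p = 2.68e-11, Fisher's exact test).

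BAALC encodes a membrane-associated protein of hematopoietic progenitors whose high expression goes with poor outcome in AML. The gene lies on the plus strand of chromosome 8, and no sequence of it is shown. Its promoters had the largest difference of the 9 genes, averaging 0.621 in SKNO-1 and 0.9499 in SKNO1-siAE over 53 sites. This difference rested on few reads. In a candidate region of 126 bp over a coding exon, centred 268 bp after the canonical start, all 18 sites were on the minus strand. There SKNO-1 had 5 of 90 reads methylated (interval of the share 0.0240 to 0.124) and SKNO1-siAE 103 of 103 (lower limit 0.964). Each of these sites had 5 reads in SKNO-1 and 5 to 7 in SKNO1-siAE, and the 18 sites made only 3 runs of neighbours with equal numbers of reads, 1 of them of 11 sites. The region was not called, although 17 of its sites were called one by one. With at least 10 reads per site the BAALC promoter difference was 0.00443, and on the plus strand alone it was -0.0483.

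In the BAALC body, where the median depth was 18 and 20 reads, the level was 0.801 in SKNO-1 and 0.928 in SKNO1-siAE over 53 sites, with 13 sites called lower and 1 higher. A candidate region of 6 sites in an intron had 162 of 335 methylated reads in SKNO-1 (interval of the share 0.431 to 0.537) and 343 of 349 in SKNO1-siAE (interval 0.963 to 0.992). Within it the BAALC site with the smallest adjusted p had 28 of 98 methylated reads in SKNO-1 and 98 of 98 in SKNO1-siAE (adjusted p = 3.73e-27, Fisher's exact test). In the promoter, the site with the smallest adjusted p was higher in SKNO-1, with 27 of 28 methylated reads against 27 of 45 (adjusted p = 0.00342, Fisher's exact test). The protein-coding genes whose mean promoter levels in both libraries were nearest to those of BAALC were SBSN (0.621 and 0.948 over 37 sites), THY1 (0.625 and 0.945 over 79 sites) and HAAO (0.629 and 0.951 over 88 sites).

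CAV1 encodes caveolin-1, the coat protein of the membrane pits called caveolae. CAV1 spans chr7:116165048-116201233 on the plus strand, and its 9 starts share 1 window, the best covered of the 9 genes. The CAV1 promoter averaged 0.258 in SKNO-1 and 0.532 in SKNO1-siAE over 206 sites, and pooled over reads the difference was -0.250 (Newcombe interval -0.271 to -0.230). It was much the same on both strands, at -0.277 on the plus and -0.272 on the minus strand. In SKNO-1, 104 sites were under 0.1 and 10 over 0.9, and in SKNO1-siAE 41 were under 0.1 and 44 over 0.9. The reads were balanced, with a log2 ratio of -0.00895. Of all 17879 promoters, 9.18% had a difference as low as that of CAV1 or lower.

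The difference came in blocks along the window of CAV1. From -1000 to -751 bp both libraries were methylated, at 0.983 and 0.946 over 4 sites. From -500 to -251 bp the level was 0.167 in SKNO-1 and 0.625 in SKNO1-siAE over 28 sites. In the 250 bp before the canonical CAV1-201 start it was 0.111 and 0.207 over 29 sites, and in the 250 bp after it 0.238 and 0.0491 over 11 sites. These 11 were minus-strand sites only, and 0 of them were called. From 250 to 499 bp SKNO-1 was again the lower, at 0.311 against 0.598 over 12 sites.

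The called region of CAV1, chr7:116166291-116166497, covers an untranslated exon 1304 bp after the canonical start and 47 bp after the start of another transcript. There SKNO-1 had 75 of 554 reads methylated (interval of the share 0.109 to 0.166) and SKNO1-siAE 544 of 765 (interval 0.678 to 0.742). The mean level of its 40 sites was 0.101 against 0.745, and 26 of them were called lower. With at least 10 reads per site the region was no longer called. Both strands differed, by -0.743 on the plus strand and -0.564 on the minus strand. Directly after it, chr7:116166568-116166734 stood the other way, with 166 of 252 methylated reads in SKNO-1 and 34 of 181 in SKNO1-siAE over 13 sites. The body of CAV1 was lower in SKNO-1 as well, at 0.510 against 0.819 over 27 sites, with 12 sites called lower and 0 higher, and 4.62% of the 14409 genes had a body difference as low or lower.

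The 2 strands of a CpG are read separately, so each gives its own reading of the same region. Whether their reads came from different fragments was not examined. Of the 45 candidate regions, 37 had sites on both strands, and the difference had the same sign on both in 35 of them. Since a region was drawn from both strands together, its sign is partly set by that choice. Neighbouring sites on a strand often carried equal numbers of reads, and the 40 sites of the called CAV1 region made 20 such runs, the 35 of POU4F1 made 20 and the 24 of CCND2 made 18. The p of a region treats its sites as separate, and site levels were often tied, so no such p is given and the calls only rank regions within this pair of libraries.

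**Figure D2:**
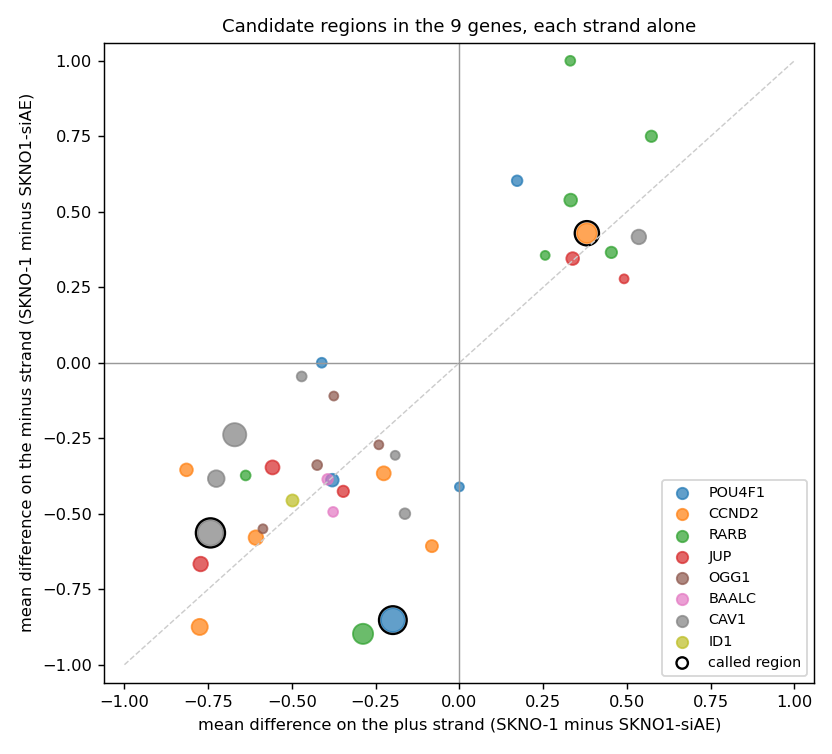
Mean difference (SKNO-1 minus SKNO1-siAE) on the plus strand (x axis) and on the minus strand (y axis) of the 37 candidate regions with sites on both strands, coloured by gene, with the area of a point growing with its number of sites and called regions ringed. Most points lie in the lower left, the called CCND2 and CAV1 regions lie near the diagonal, and the called POU4F1 region lies far from it, at -0.199 and -0.852.

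The RUNX motif was looked for in its core forms TGTGGT and TGCGGT on both strands. In the window from 1500 bp before to 500 bp after the canonical start, 6 of the 9 genes held TGTGGT, as did 62.9% of 19856 protein-coding starts, and 5 of the 9 held TGCGGT, as did 38.1%. In the 300 bp around the start these numbers were 1 of 9 (OGG1) against 10.7% and 1 of 9 (BAALC) against 8.97%. Only TGCGGT contains a CpG, and 14 shared sites at the 9 genes lay in it, 10 of them at CCND2. None of the 14 was called, against 4.41% called higher and 11.7% called lower of all shared sites, and at 12 of them the level was the same in both libraries, as at 51.6% of all shared sites. The CCND2 sites at chr12:4405605 and chr12:4405606, for example, had 17 of 17 and 57 of 57 methylated reads in SKNO-1 and 34 of 34 and 22 of 22 in SKNO1-siAE, while those at chr12:4381812 and chr12:4381813 had 0 of 14 and 0 of 15 against 0 of 11 and 0 of 6. A match to these letters is a description of the sequence and not a site of binding.

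A further 20 genes reported as regulated or bound by RUNX1-RUNX1T1 or RUNX1 in myeloid cells were compared in the same promoter windows. Of the 18 with at least 10 shared sites, 4 were at least 0.2 higher in SKNO-1 and 0 were at least 0.2 lower, with a median difference of 0.0272, against 2.5% higher and 13.3% lower and a median of -0.0126 over all promoters. The rule for names leaves 1 of these 4 to the count. The other three were ELANE, which encodes neutrophil elastase, at 0.824 in SKNO-1 and 0.141 in SKNO1-siAE over 11 sites, CSF2, which encodes GM-CSF, at 0.815 and 0.487 over 16 sites, and RASSF2, a Ras effector, at 0.422 and 0.177 over 54 sites. Promoters under 0.1 in both libraries included those of CDKN2A, CEBPE and MPO. Whether this list differs from the 9 genes was not tested, since both were chosen with results of these data known.

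**Figure D3:**
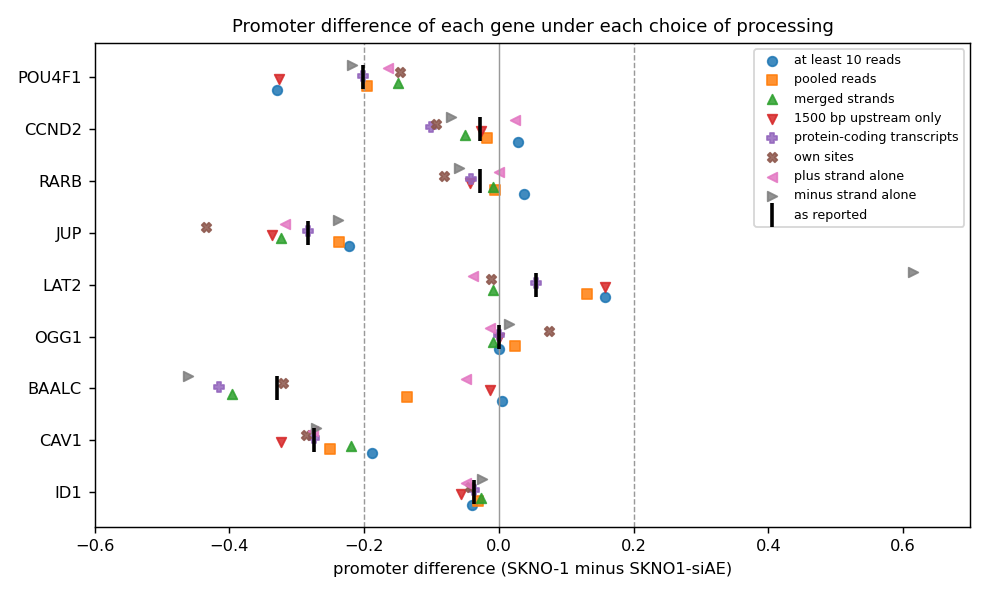
Promoter difference (SKNO-1 minus SKNO1-siAE) of each gene as reported (black bars) and under 8 other choices of processing (coloured symbols), with dashed lines at -0.2 and 0.2. JUP stays beyond -0.2 under every choice shown, CAV1 under all but the one with at least 10 reads, and BAALC ranges from -0.461 to 0.00443.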

How the data were processed

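Genomic DNA of SKNO-1 and SKNO1-siAE was bisulfite-converted, captured with SeqCap Epi probes and sequenced as paired reads. Per the submitters' processing notes, cutadapt 1.4.2 and BSMAP 2.73 were used with hg19. The authors deposited raw counts of methylated and of unmethylated reads at each cytosine of a CpG, not normalized and limited to sites of 5 or more reads. The files held 83620068 site reads over 4713346 sites for SKNO-1 and 82164216 over 4694016 for SKNO1-siAE, a mean depth of 17.7 and 17.5. The removal of PCR duplicates was not given in the sources used here, and duplicates or uneven conversion would make intervals too narrow. Of the sites on chromosome 20, 100% lay on CpGs of GRCh37.

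Levels were averaged over the shared sites of each window. Pooled shares have Wilson intervals, and their differences have Newcombe intervals. Metilene, which the study used for regions, was replaced by the runs described above, under the study's limits, with the normal approximation of the rank test. The calling was tested on simulated data with the reads of each site drawn independently. That simulation therefore could not show the effect of reads shared by neighbouring sites. The 9 genes, the further 20 genes and the tests were chosen with earlier results of these data known. The rule for names covers all 9 genes, in each the site with the smallest adjusted p of the promoter and of the body, called regions, the further genes past 0.2 or under 0.1 in both libraries except some left to a count, and the 3 genes most like the one with the largest promoter difference. Some items under this rule are not reported here. The alternatives were at least 10 reads, pooled reads, merged strands, upstream windows, coding transcripts, own sites of each library, the whole gene span, other adjustments, and other limits and another test for regions; single strands were added after seeing the data. Tests were run with scipy 1.17.1 and numba 0.67.0 and tables made with pandas 2.3.3 (numpy 2.4.6, python 3.11.15). Sequences were read with samtools 1.23.1 through pysam 0.24.0, and figures drawn with matplotlib 3.10.9.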

Additional observations from a re-analysis of the deposited data

How the results depend on the processing

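Of 138 values recomputed under another choice, 72 stayed within the counting interval of the reported value or, for counts, within 1.5 times it, 65 moved farther, and 1, a difference of at least 0.2 as reported, reversed. Counting also differences smaller than that, 12 had another sign than as reported, 11 of them under 0.2, at CCND2, RARB, LAT2 and OGG1 in promoters and at JUP in the body. The causes of these shifts were not tested, apart from what the choice itself removes. With at least 10 reads per site, the promoter difference of BAALC reversed to 0.00443, and it was -0.330 for POU4F1, 0.0281 for CCND2, 0.0372 for RARB, -0.222 for JUP, 0.157 for LAT2 and -0.189 for CAV1. From pooled reads it was -0.237 for JUP, -0.136 for BAALC and -0.250 for CAV1. With the strands of a CpG merged it was -0.150 for POU4F1, -0.0497 for CCND2, -0.396 for BAALC, -0.220 for CAV1 and -0.0266 for ID1. In the upstream part of the windows alone it was -0.326 for POU4F1, -0.337 for JUP, 0.157 for LAT2, -0.0127 for BAALC, -0.323 for CAV1 and -0.0567 for ID1. With coding transcripts alone it was -0.100 for CCND2 and -0.416 for BAALC. With each library's own sites it was -0.147 for POU4F1, -0.0938 for CCND2, -0.0814 for RARB, -0.435 for JUP and 0.0739 for OGG1. On the plus strand alone, a choice added after seeing the data as was the minus strand, it was -0.165 for POU4F1, 0.0246 for CCND2, 0.000736 for RARB, -0.0382 for LAT2, -0.0483 for BAALC and -0.0481 for ID1. On the minus strand alone it was -0.0708 for CCND2, -0.0589 for RARB, -0.239 for JUP, 0.614 for LAT2 (1 site), -0.461 for BAALC and -0.0252 for ID1. Of 26 gene-body differences recomputed, 14 moved, by over 1.5 times for POU4F1 (-0.0220 to -0.102) and JUP (0.122 to 0.0761) with at least 10 reads, and over the whole gene span for POU4F1 (-0.0491), CCND2 (-0.0899), RARB (0.0537), OGG1 (-0.139), BAALC (-0.284) and JUP (-0.00491). The count of promoters at least 0.2 lower in SKNO-1 was 2 instead of 4 with at least 10 reads, with pooled reads and on the plus strand alone. Bonferroni adjustment left 11 of the 1028 promoter sites higher and 15 lower, and 12 of the 789 gene-body sites higher and 12 lower. Of all shared sites it left 0.669% higher and 2.28% lower. The share called lower was thus below that of all shared sites in both parts, whereas under Benjamini-Hochberg it was above. At least 10 reads left 46 promoter sites higher and 95 lower, against 5.37% and 13.6% of all such sites. The promoter sites of the 9 genes at that depth were not counted, so no share is given. With at least 10 reads the called regions of POU4F1 and CAV1 were lost, which left 0 lower, and a smoothed difference of at least 0.3 lost that of CCND2, which left 0 higher, while Fisher's exact test on pooled reads called 9 higher and 28 lower, against 15.1% and 55.7% of all candidate regions.

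With 1 library per cell line, nothing here separates the silencing of the fusion from any other difference between the 2 lines. A site with 5 reads in each library can only show a large difference, and the promoters of LAT2 and BAALC rested on few or shallow sites. No paired analysis was possible because each cell line had 1 library.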
